A study of Oryza sativa Indica Group with 8 samples.

Results

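Rice seedlings deprived of phosphorus (P) and iron (Fe) together are described here through 4 Affymetrix rice arrays, 2 of roots in the combined deficiency (P-Fe-) and 2 of control roots, out of 8 arrays in the series. The arrays were chosen by their treatment labels alone. The groups, all of Oryza sativa Indica Group in hydroponic culture, were the combined deficiency, P deficiency (P-), Fe deficiency (Fe-) and the control, which the protocol notes call P+, with 2 arrays each. The design text gives 7 days of treatment, whereas the protocol notes mention 10 days of hydroponics and seedlings of 5 days. The cultivar and the nutrient concentrations are not given in the sources used here, and no label says whether the paired arrays came from separate cultures. The p-values thus reflect no more than how these arrays scatter, and that scatter could be technical.

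Grasses that run short of phosphate switch on a regulon driven by PHR transcription factors. SPX proteins bind PHR factors when phosphate is ample and release them when it falls, and the targets include phosphate transporters of the PHT1 family and enzymes that replace phospholipids by galactolipids. Grasses short of iron secrete mugineic acids, made from nicotianamine, and take the ferric complex back up through YSL transporters, while rice also takes up ferrous iron through IRT and NRAMP transporters. The 2 nutrients meet in the root, since phosphate binds iron in the medium and in the tissue.

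Values are quantile-normalized intensities, and a change is a difference in log2(intensity + 16), which understates the change of dim genes. A probe set rose or fell if its moderated limma p-value, adjusted by the Benjamini-Hochberg method over 57194 probe sets, was below 0.05. Of these probe sets 2200 passed between the combined deficiency and the control, which is 3.85%, with 1184 higher (2.07%) and 1016 lower (1.78%). With 1 probe set per gene, 675 of 17905 genes rose (3.77%) and 524 fell (2.93%), and these shares are the background for the gene groups below. Both arrays of one group lay above both of the other in 64.1% of the genes. The median change over all genes was -0.02.

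The P-deficiency and Fe-deficiency arrays enter the comparison of the combined deficiency with the control only through the spread pooled over the groups. Even so, the number of calls fell whichever array was left out. It was 4 and 6 without the first and the second array of the combined deficiency, 70 and 19 without the first and the second control array, 77 without either Fe-deficiency array and 603 without either P-deficiency array. Before normalization the median intensity was 63.9 and 68.9 on the combined-deficiency arrays, against 48.0 and 54.4 on the control arrays. Centring each array on its median in place of quantile normalization left the count near its size, at 2257, but only 29.7% of these were higher, against 53.8% in the fit used here. That scaling moved the median change of all probe sets to -0.19, and the values as deposited moved it to 0.10, so the smaller shifts of whole gene groups depend on the scaling. The log2 difference between 3' and 5' probe sets of the control transcript GAPDH was 2.67 and 2.69 in the combined deficiency and 3.66 and 3.56 in the control. That difference was 4.06 and 4.0 in the combined deficiency against 4.36 and 4.15 in the control for actin, 1.39 and 1.63 against 1.56 and 1.49 for cyclophilin, and -0.16 and -0.236 against -0.0777 and -0.153 for ubiquitin. The part of these differences in the results was not tested.

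The gene lists were chosen with earlier results of these data known, so a rank among them is no separate evidence. Phosphate starvation genes had the highest share of rises among the lists of at least 5 genes. Of the 12 measured, 7 rose and 0 fell (58.3%), with a median change of 2.26. OsSPX1 (LOC4341465), a phosphate-dependent inhibitor of PHR factors, stood at 8665 and 8974 in the combined deficiency, against 889 and 898 in the control, a 9.71-fold rise (log2 change 3.28, SE 0.13, limma adjusted p = 0.00255). The 2 P-deficiency arrays held it at 9183 and 9902 and the Fe-deficiency arrays at 951 and 1003, so the arrays without P, with or without Fe, lay far above the others.

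The other SPX genes of the list followed the same split. OsSPX5 had 4630 and 4704 in the combined deficiency, against 151 and 120 in the control (4.96, SE 0.16, limma adjusted p = 0.00134). OsSPX2 had 2952 and 2947 in the combined deficiency, against 196 and 290 in the control (3.54, SE 0.23, adjusted p = 0.0079). For both genes, each array of the combined deficiency lay about an order of magnitude or more above each control array. OsSPX3 had 1323 and 1264 in the combined deficiency, against 10.9 and 30.4 in the control, below the array medians (5.21, SE 0.29, adjusted p = 0.00692).

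OsMGD2 and OsMGD3, which encode enzymes of galactolipid synthesis, rose as well. OsMGD2 (LOC4345212), a monogalactosyldiacylglycerol synthase, had 1211 and 1379 in the combined deficiency and 27.5 and 21.7 in the control (5.01, SE 0.16, limma adjusted p = 0.00134). Its paralogue OsMGD3 had 2566 and 2390 in the combined deficiency and 1272 and 1306 in the control, a 1.91-fold rise (adjusted p = 0.0284). These were the 2 members that rose among 6 measured genes of membrane lipid remodelling.

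Among the 9 measured PHT1 phosphate transporters only OsPht1;6 rose and 0 fell. It had 952 and 949 in the combined deficiency, against 79.8 and 25.5 in the control, and its 2 control arrays lay far apart as a ratio (3.94, SE 0.38, limma adjusted p = 0.0165). OsPht1;4 had 887 and 1206 in the combined deficiency and 333 and 407 in the control, which missed the threshold (1.45, adjusted p = 0.0501). OsPht1;2, with 318 and 260 in the combined deficiency against 132 and 95.2 in the control, also fell short (1.24, adjusted p = 0.0544). The arrays of the groups did not overlap for either gene, which was also so for 64.1% of all genes.

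The transporter gene OsPht1;8 had 6496 and 6110 in the combined deficiency and 2731 and 3778 in the control (0.97, adjusted p = 0.0688). OsPht1;1 had 2906 and 2908 in the combined deficiency, 1563 and 1623 in P deficiency and 4449 and 3928 in the control. Its level with both nutrients missing lay between the other 2, with a limma adjusted p of 0.108 against the control and 0.15 against P deficiency. OsPht1;3, OsPht1;7, OsPht1;11 and OsPht1;12 were dim, with changes of -0.47, 0.72, -0.50 and 0.31 that did not pass.

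None of the 6 signalling genes passed. The phosphate response factors OsPHR1, OsPHR2 and OsPHR3 changed by -0.40, -0.40 and -0.28, OsSPX4 by 0.06, and the phosphate exporter genes OsPHO1;2 and OsPHO1;3 by -0.19 and 0.14. OsPHO1;2, which loads phosphate into the xylem, had 16850 and 18520 in the combined deficiency and 20550 and 19850 in the control, close together in all 4 groups. The SUMO ligase gene SIZ1 (-0.11) completed the phosphate starvation list.

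Set against P deficiency, which shares only the missing P, 0 of the 12 phosphate starvation genes passed, and their changes ran from -0.77 for OsSPX3 to 0.51 for OsPht1;8. Over all probe sets that contrast had 18 calls (0.0315%), so few genes of any kind passed it. Set against Fe deficiency, which has P, 8 of the 12 were higher and 0 lower, while 2.64% of all genes were higher. The 8 were the 7 named above and OsPht1;2 (1.61, limma adjusted p = 0.042).

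**Figure D1:**
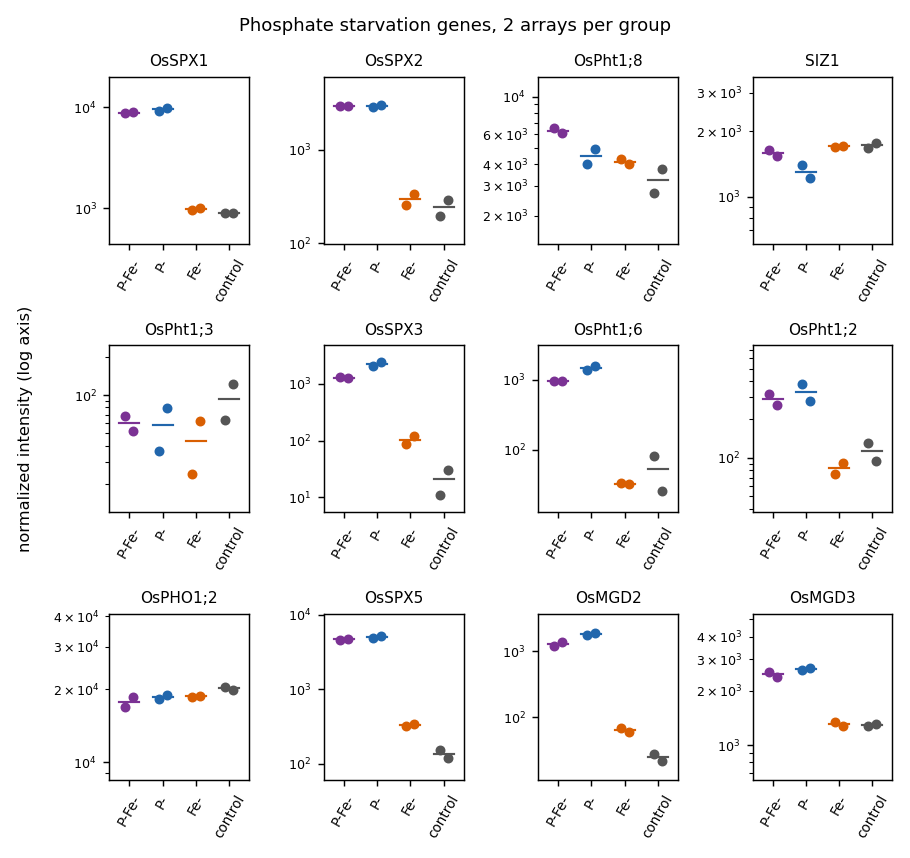
Normalized intensity (log axis) of the 12 phosphate starvation genes on each array, with the groups along the horizontal axis and a line at each group mean of 2 arrays. For OsSPX1, OsSPX2, OsSPX3, OsSPX5, OsMGD2, OsMGD3 and OsPht1;6, the P-Fe- and P- arrays stand together above the Fe- and control arrays.

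Iron acquisition genes gave fewer calls, in part of the pathway. Of 15 measured, 3 rose and 0 fell (20%), with a median change of 0.41, and that median was 0.10 when arrays were centred on their medians. The 3 were the nicotianamine synthase genes OsNAS1 and OsNAS2, which lie next to each other in the genome, and the ferrous transporter gene OsIRT1.

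OsNAS1 (LOC4332608) stood at 24730 and 24230 in the combined deficiency and 8337 and 7857 in the control, a level 3.02 times higher (log2 change 1.59, SE 0.14, limma adjusted p = 0.0156). In Fe deficiency it was at 25370 and 24730, a difference of -0.03 for the combined deficiency. OsNAS2 had 10510 and 10980 in the combined deficiency, 13090 and 13210 in Fe deficiency and 3514 and 3030 in the control, a rise of 1.71 (SE 0.15, adjusted p = 0.0141). For both genes the P-deficiency arrays lay between those of the control and the combined deficiency. OsIRT1 was dim, at 256 and 255 in the combined deficiency, 229 and 259 in P deficiency, 148 and 192 in Fe deficiency and 118 and 114 in the control (1.05, SE 0.17, adjusted p = 0.038). Its combined-deficiency arrays lay within the range of the P-deficiency arrays, and the limma change in P deficiency against the control was 0.98 (adjusted p = 0.028), against 0.49 (adjusted p = 0.52) in Fe deficiency.

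The YSL transporters of this list did not pass against the control. OsYSL15, the root uptake transporter for iron bound to deoxymugineic acid, had 657 and 576 in the combined deficiency, 1674 and 2051 in Fe deficiency and 438 and 482 in the control. It was lower in the combined deficiency than in Fe deficiency by 1.57 on the log2 scale (limma adjusted p = 0.028). OsYSL9 showed the same order, with 743 and 651 in the combined deficiency and 1586 and 1577 in Fe deficiency (-1.17, adjusted p = 0.034), against 637 and 595 in the control. These were the 2 of 15 iron acquisition genes that passed against Fe deficiency, both lower, where 1.47% of all genes were lower. OsYSL16 was at 384 and 380 in the combined deficiency, 549 and 559 in Fe deficiency and 305 and 365 in the control, and passed neither contrast.

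OsNramp1, a transporter of ferrous iron, had 1535 and 1688 in the combined deficiency, 2915 and 2928 in Fe deficiency and 839 and 690 in the control. Its change against the control missed the threshold (1.06, limma adjusted p = 0.0507), as did that against Fe deficiency (-0.85, adjusted p = 0.096). OsNAAT1, the aminotransferase that turns nicotianamine toward mugineic acid, had 8622 and 9091 in the combined deficiency, 4009 and 4001 in P deficiency, 13550 and 12900 in Fe deficiency and 7399 and 7831 in the control. With both nutrients missing it stood within 1.16-fold of the control, between the levels of the 2 single deficiencies.

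The remaining acquisition genes did not pass. OsIRT2 had 102 and 94.6 in the combined deficiency, against 33.6 and 4.59 in the control (1.84, adjusted p = 0.0723). The S-adenosylmethionine synthetase genes SAM1 and SAM2, the mugineic acid efflux gene tom1, OsIDI2, ARD4 and OsNramp5 changed by 0.07, 0.41, -0.15, 0.60, 0.20 and -0.12. No phosphate or iron acquisition gene had an interaction, the difference between the combined change and the sum of the single changes, that passed in limma. Over all probe sets 23 interactions passed (0.0402%), 4 above 0 (0.00699%) and 19 below (0.0332%).

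Of the 2 measured iron regulators none passed. OsbHLH063, a basic helix-loop-helix factor also named OsIRO3 that represses iron deficiency genes, had 726 and 851 in the combined deficiency and 536 and 373 in the control (0.79, limma adjusted p = 0.111), and IDEF1 changed by -0.12. Iron storage and internal transport genes gave 0 calls in 20, with changes between -0.96 and 1.07. At the ends of that range were the vacuolar iron transporter genes, OsVIT2 with 4413 and 5394 in the combined deficiency against 11320 and 7958 in the control, and OsVIT1 with 230 and 243 against 76.7 and 140 in the control (adjusted p = 0.0969 and 0.0944). OsNAS3 (0.63, adjusted p = 0.0726), NRAMP4 (0.71, adjusted p = 0.0599) and NRAMP6 (0.63) were higher without passing. Among the further YSL genes of this list, OsYSL13 had 1040 and 1047 in the combined deficiency, 522 and 505 in P deficiency, 1754 and 1746 in Fe deficiency and 1133 and 1102 in the control. The remaining members, tom2, OsNramp2, OsNramp3 and 11 other YSL genes, changed by between -0.83 and 0.80.

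**Figure D2:**
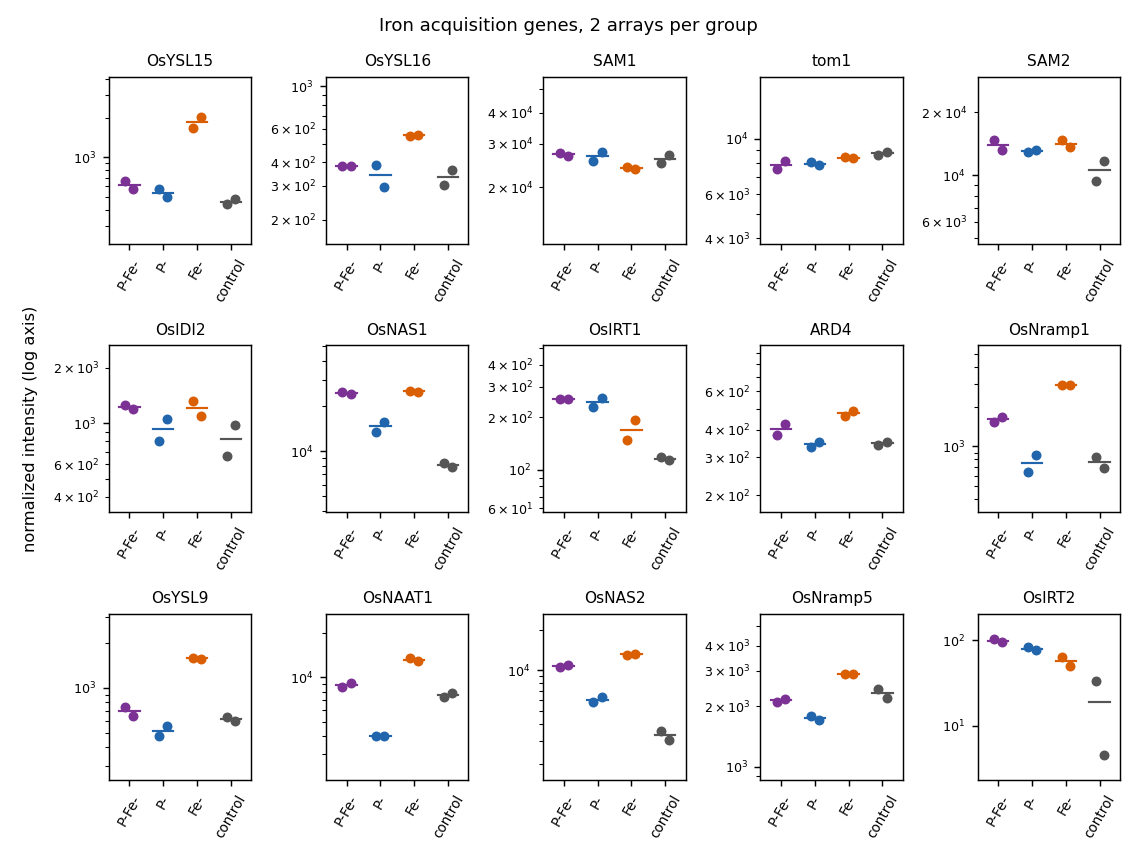
Normalized intensity (log axis) of the 15 iron acquisition genes on each array, by group, with a line at each group mean of 2 arrays. OsNAS1 and OsNAS2 stand as high or nearly as high in P-Fe- as in Fe-, while OsYSL15, OsYSL9 and OsNramp1 stand below their Fe- level.

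Among 20 measured zinc and copper transport genes, 3 fell and 0 rose (15%), with a median of -0.47. In P deficiency against the control 8 of the 20 fell and 0 rose (median -0.67), and in Fe deficiency 0 fell and 0 rose. OsZIP1 (LOC4326394), which belongs to the ZIP metal transporters, had 458 and 248 in the combined deficiency and 1606 and 1866 in the control (-2.31, SE 0.30, limma adjusted p = 0.0243), and its direct neighbour LOC4326393 fell by 1.62. A second locus of the same name, LOC4342782, averaged 98.2 in the combined deficiency and 149 in the control and did not pass. The copper uptake gene OsCOPT1 had 573 and 594 in the combined deficiency, against 1984 and 1926 in the control (-1.72, limma adjusted p = 0.0178). P deficiency held OsZIP1 (LOC4326394) at 201.5 and 204.1 and OsCOPT1 at 498.3 and 381.7. Fe deficiency held OsZIP1 at 1051 and 1262 and OsCOPT1 at 1400 and 1644. OsHMA5, a copper ATPase of the root, had 1605 and 1570 in the combined deficiency and 3153 and 2711 in the control (-0.88, adjusted p = 0.0498). Metallothioneins, small cysteine-rich metal-binding proteins, had 3 of 7 genes higher and 0 lower.

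OsMT-I-2c (LOC4337596) had 21970 and 21670 in the combined deficiency and 5455 and 7062 in the control (1.81, SE 0.17, limma adjusted p = 0.016). OsIDS1 had 14870 and 15630 in the combined deficiency, against 5442 and 4576 in the control (1.61, adjusted p = 0.0162). OsMT-I-2b had 42500 and 39520 in the combined deficiency and 18360 and 20840 in the control (1.07, adjusted p = 0.0272). The median of the 7 was 0.22, and -0.09 with median centring.

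Cell wall genes were among the rises. Of 29 expansins, which loosen walls, 5 rose and 0 fell (17.2%), as did 6 of 29 genes of the cellulose synthase superfamily with 0 lower (20.7%). OsEXPB18 had 358 and 363 in the combined deficiency, against 37.7 and 4.58 in the control (3.50, SE 0.46, limma adjusted p = 0.0255). OsEXP1 had 1288 and 1281 in the combined deficiency and 524 and 490 in the control (1.31, adjusted p = 0.0175), and OsEXP10 and OsaEXPb1.6 rose by 1.30 and 2.01. OsaEXPb2.2 fell by 1.67 with one probe set, while the one that counts for the list gave -1.26 without passing (adjusted p = 0.0612).

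OsCesA4 and OsCesA9, cellulose synthases of secondary walls, rose by 1.33 and 1.27. OsCesA4 had 7073 and 7780 in the combined deficiency, against 2954 and 2919 in the control (limma adjusted p = 0.0167). OsCslC3 (1.56) and OsCslF6 (1.30), of the families that make xyloglucan and mixed-linkage glucan backbones, led the cellulose synthase-like genes. BC1, a COBRA-like protein needed for secondary walls, had 2000 and 1815 in the combined deficiency and 428 and 518 in the control (1.98, adjusted p = 0.0167). Peroxidases and laccases, which polymerize lignin, rose in 4 of 11 cases and fell in 0, namely LAC4 (1.60), LAC10 (1.52), PRX74 (1.51) and PRX112 (1.06). PRX74 had 7183 and 7216 in the combined deficiency, against 2505 and 2525 in the control. With median centring the expansin and cellulose synthase medians of 0.20 and 0.17 became -0.02 and -0.16, with 3 expansins higher and 0 lower, and 3 cellulose synthase genes higher and 2 lower.

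Genes of diterpenoid phytoalexin synthesis, the antimicrobial terpenes of rice, rose in 6 of 19 cases and fell in 0 (31.6%), with a median of 1.14. With median centring 3 of the 19 rose (median 0.94), with the values as deposited 8 (1.23) and with an added constant of 1 only 1 (1.18). OsCPS2 (LOC9266189), the copalyl diphosphate synthase of the phytocassane branch, had 1257 and 1322 in the combined deficiency and 242 and 139 in the control (2.71, SE 0.25, limma adjusted p = 0.0158). Its neighbour on the chromosome, the cytochrome P450 gene CYP71Z7, had 2478 and 1965 in the combined deficiency, against 544 and 432 in the control (2.15, SE 0.38, adjusted p = 0.0443). OsKS3 (1.48), CYP701A8 (1.25), CYP99A2 (1.15) and OsCPS4 (0.75) were the other 4. Against Fe deficiency and against P deficiency 0 of the 19 passed in limma.

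The pathogenesis-related and the phenylpropanoid lists had shares of rises of 18.2% and 12.5%, each from 2 genes, beside 3.77% of all genes. Of 11 pathogenesis-related and chitinase genes 2 rose and 0 fell, namely Cht1, with 3197 and 2918 in the combined deficiency and 784 and 783 in the control (1.94, limma adjusted p = 0.00793), and Cht11 (0.91). Of 16 phenylpropanoid and flavonoid genes 2 rose and 0 fell. OsCHS1, a chalcone synthase at the entry to flavonoids, had 4424 and 4575 in the combined deficiency, against 678 and 755 in the control (2.63, SE 0.14, adjusted p = 0.00633), and Os4CL3 rose by 0.83. OsCHS1 had 5306 and 5884 in P deficiency and 1066 and 1100 in Fe deficiency. The 4 other OsCHS1 probe sets were dim and did not pass.

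Jasmonate genes had 3 falls and 0 rises in 38 (7.89%), all of JAZ repressors, which keep jasmonate responses off and are themselves induced by jasmonate. OsJAZ3 had 48.6 and 42.7 in the combined deficiency and 158 and 186 in the control (-1.60, limma adjusted p = 0.0193). OsJAZ13 had 229 and 282 in the combined deficiency, against 950 and 620 in the control (-1.54, adjusted p = 0.0331). OsJAZ10, by its brighter probe set, had 1342 and 1318 in the combined deficiency and 3321 and 3342 in the control (-1.31, adjusted p = 0.0165). The arrays of the 2 groups did not overlap for any of the 3, which was also so for 64.1% of all genes. All 3 genes were among the largest named falls, for which a lack of overlap was a condition of choice. The lack of overlap is thus no separate evidence for these falls. OsWRKY71, the single fall among 6 WRKY factors, had 857 and 987 in the combined deficiency against 2262 and 2486 in the control (-1.35, adjusted p = 0.032).

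The abscisic acid and LEA list, which includes proteins that protect drying cells, had 3 rises and 0 falls in 8. The dehydrin gene RAB21 had 1676 and 1771 in the combined deficiency, against 272 and 294 in the control (2.54, SE 0.16, limma adjusted p = 0.00782). Its genomic neighbour RAB16B, another dehydrin, rose by 1.43 and OsLEA19 by 1.97. The DREB factors, regulators of cold and drought genes, had 2 falls and 0 rises in 8, CBF3 (-2.68) and OsDREB1B.1 (-2.41). The same 2 genes, listed as ERF24 and ERF31, were the only calls among 20 ethylene genes. The single call among 43 heat shock genes was OsHsp17.4 (1.57), and that among 55 protein phosphatase 2C genes was OsPP2C32 (-1.08).

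Sugar metabolism and transport genes went both ways, with 4 rises and 2 falls in 32. The sugar exporter genes OsSWEET11 (1.99), OsSWEET1a (1.55) and OsSWEET4 (0.98) rose. OsSWEET4 had 6879 and 6706 in the combined deficiency and 3557 and 3339 in the control. Sucrose synthase OsSUS6 rose by 0.75, whereas the invertase genes OsCIN2 and OsCIN7 fell by 1.49 and by 0.79. OsTPP4, a trehalose-phosphate phosphatase and the only call among 9 trehalose genes, had 290 and 379 in the combined deficiency, against 1499 and 1269 in the control (4.01-fold lower, limma adjusted p = 0.0239).

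Transport of other ions and of water changed in single genes. OsHAK17, of a potassium transporter family, had 477 and 397 in the combined deficiency and 96.5 and 80.3 in the control (2.12, SE 0.23, limma adjusted p = 0.0192), and a second, dim probe set gave 0.62 without passing. The sodium transporter gene OsHKT1;5 fell by 1.00. They were the 2 calls among 34 potassium, sodium, ammonium and nitrate transporters. That is 2.94% higher and 2.94% lower, beside 3.77% and 2.93% of all genes. NIGT1 encodes a nitrate-inducible repressor and not a transporter. It had 1815 and 1922 in the combined deficiency and 415 and 399 in the control (2.15, limma adjusted p = 0.00867). P deficiency held it at 2009 and 2288 and Fe deficiency at 335.5 and 389.6. Of 25 aquaporins 2 rose, OsTIP2;1 (1.09) and OsPIP2;8 (1.15). Another probe set of OsTIP2;1, listed as OsTIP2, rose by 1.95.

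Auxin response and transport genes had 1 rise and 3 falls in 58, and calcium sensors 2 rises and 3 falls in 77, shares of the order of the background. IAA20 (-1.62), IAA1 (-1.01) and OsGH3-2 (-0.89) fell and OsPIN2 rose (1.29). CML17 (1.72) and OsCIPK18 (1.39) rose, and CML31 (-1.18), CML16 (-1.15) and CML15 (-1.08) fell. Of 32 glutaredoxins and thioredoxins 2 rose and 2 fell, and of 6 glutathione S-transferases GST1 rose (0.81). OsTrxh1 had 18390 and 19150 in the combined deficiency and 10150 and 9734 in the control (0.91, limma adjusted p = 0.0286), while OsTrxm5 (-0.93) and OsTrx20 (-1.58) fell.

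**Figure D3:**
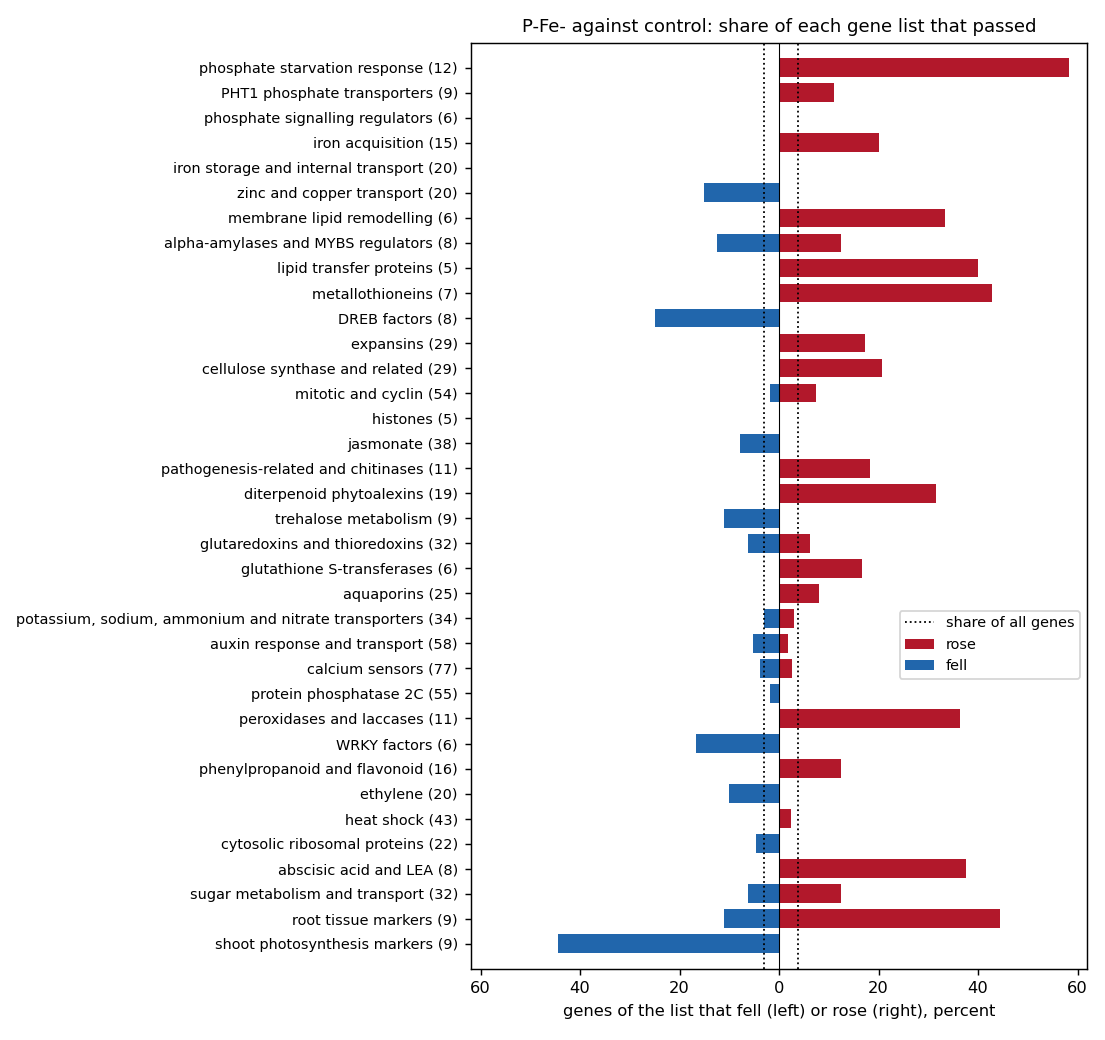
Share of each gene list (number of measured genes in brackets, lists of 5 or more) that fell (bars to the left) or rose (bars to the right) between P-Fe- and control roots at a limma adjusted p under 0.05. Dotted lines mark the share over all genes, 2.93% lower and 3.77% higher, and the phosphate starvation list reaches 58.3% higher. The lists were chosen with earlier results of these data known.

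Some markers of cell types and tissues were called too, and OsCesA4, OsCesA9 and OsPIN2 among them were already counted in lists above. Of 9 shoot photosynthesis genes, which a root sample should hold little of, 4 fell and 0 rose, and their summed intensity was 43480 and 41610 in the combined deficiency, against 64040 and 60620 in the control. The 4 were OsrbcS (-1.25), LIR1 (-1.29), the Rubisco activase gene rca (-1.22) and PSAH (-1.11). Without detection calls, an intensity above 0 does not show that a marker was present. OsrbcS had 4581 and 4359 in the combined deficiency and 11390 and 9966 in the control. Of 9 root markers 4 rose and 1 fell, with summed intensities of 37140 and 40250 in the combined deficiency and 44810 and 41480 in the control. With median centring 1 of the 9 rose and 2 fell. The xylem genes OsCesA4 and OsCesA9, the endodermal Casparian strip gene OsCASP1 (1.25) and the root tip gene OsPIN2 rose and the silicon exporter gene Lsi2 fell (-0.94).

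Of 54 mitotic and cyclin genes 4 rose and 1 fell (7.41% and 1.85%), and the sum was 57830 and 58090 in the combined deficiency and 46900 and 46040 in the control. KIN14C (1.35), KIN14I (0.99), CYCD4-1 (0.81) and CYCB2 (0.79) rose and KIN14M (-0.90) fell. The sum over the 54 was 69970 and 65730 in P deficiency and 43390 and 43310 in Fe deficiency. In P deficiency against the control 19 of the 54 rose and 2 fell. For the combined deficiency with median centring 1 of the 54 rose and 1 fell, and with an added constant of 1 the counts were 1 and 0. The 5 histone genes gave 0 calls, with a sum of 40480 and 35660 in the combined deficiency and 26160 and 28020 in the control. The histone sum was 42400 and 43110 in P deficiency and 29130 and 30340 in Fe deficiency. The one call among the 22 genes of the cytosolic ribosomal protein list, drawn by name alone, was RPL27 (-1.41), also named CL27. Its compartment was not checked, and its other, dimmer probe sets gave -0.95 (limma adjusted p = 0.0734) and -0.23 (adjusted p = 0.507) without passing. In whole roots, fewer cells of a type and less RNA per cell cannot be told apart, and the part of these markers in the other results was not tested.

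Among the 2478 genes with a name, 105 rose and 71 fell by at least 2-fold with no overlap between the arrays, which is 4.24% and 2.87% of them. Counted in the same way over all 17905 genes, 2.96% rose and 2.17% fell. The 30 largest rises ran from 8.40 to 1.89 and the 30 largest falls from -2.68 to -1.39. AMY1.1 and LTP2-B, described below, had the largest rises, and 6 of the 10 largest were those of phosphate starvation genes named above.

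Further rises outside the lists were those of a lectin gene named Agglutinin, with 2611 and 2772 in the combined deficiency and 226 and 193 in the control (3.59, SE 0.18, limma adjusted p = 0.00491), and of Pi21, a proline-rich protein whose loss gives blast resistance (2.69). A second Pi21 probe set gave 0.92 without passing. OsbZIP06 (1.90), the helix-loop-helix gene OsILI6 (1.92) and OsELA3 (2.05) followed. The zinc finger gene OsC3H10 (1.89) was dim, at 68.79 and 85.99 in the combined deficiency and 8.955 and 9.1 in the control. P deficiency held it at 61.15 and 61.62 and Fe deficiency at 62.76 and 86.2. AARE1 (2.15) and the small GTPase gene OsRac2 (1.94) rose by dim probe sets, and their brighter probe sets gave 0.06 and -0.18 for AARE1 and 0.50 for OsRac2.

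Genes of the chloroplast were among the falls. OsrcaA1, the rca gene of the markers above read by another probe set, had 288 and 294 in the combined deficiency, against 919 and 891 in the control (-1.59, SE 0.23, limma adjusted p = 0.0316). The chlorophyll-binding protein gene LHCP had 2518 and 2562 in the combined deficiency and 8143 and 6825 in the control (-1.55, adjusted p = 0.0171). PORB, a protochlorophyllide reductase, fell by 1.42. The summed shoot photosynthesis markers given above were lower too, but that sum includes rca, so it is not separate from these falls. The sum was 38760 and 37270 in P deficiency and 54580 and 57980 in Fe deficiency.

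Other falls were those of OsPLP2, of the patatin-like family, with 981 and 980 in the combined deficiency against 2906 and 3174 in the control (-1.61), the protein kinase gene OsCIPK10 (-1.58), the beta-glucosidase gene BGLU5 (-1.57), OsBURP16 (-1.54), OsSAP17 (-1.54), CCS1 (-1.45), ADI1 (-1.43) and OsTLP3 (-1.40). OsGLU15 was at 2.00 and 3.34 in the combined deficiency, 88.5 and 116 in Fe deficiency and 45.5 and 67.3 in the control (-1.94), all low intensities. Several falls rested on probe sets whose brighter counterparts did not pass. OsMYBS2 fell by 1.95 with its dim probe set and gave 0.12 and 0.84 with 2 brighter ones. OsSFR2 fell by 2.09, against 0.84 by a brighter probe set, QM1 by 1.61, against -0.05 by its brightest, and OsTrx18 by 1.39, against 0.46 and 0.43. CDKE-1 (-1.63) had a brighter probe set at -0.46. OsTLP3 had a brighter probe set at -0.73 (limma adjusted p = 0.053) and BGLU5 one at -0.65 (adjusted p = 0.263). Of the 3 other OsCIPK10 probe sets the brightest gave -0.64 (adjusted p = 0.0658) and another -0.75 (adjusted p = 0.056), neither passing, and 1 passed at -0.93 (adjusted p = 0.0303).

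**Figure D4:**
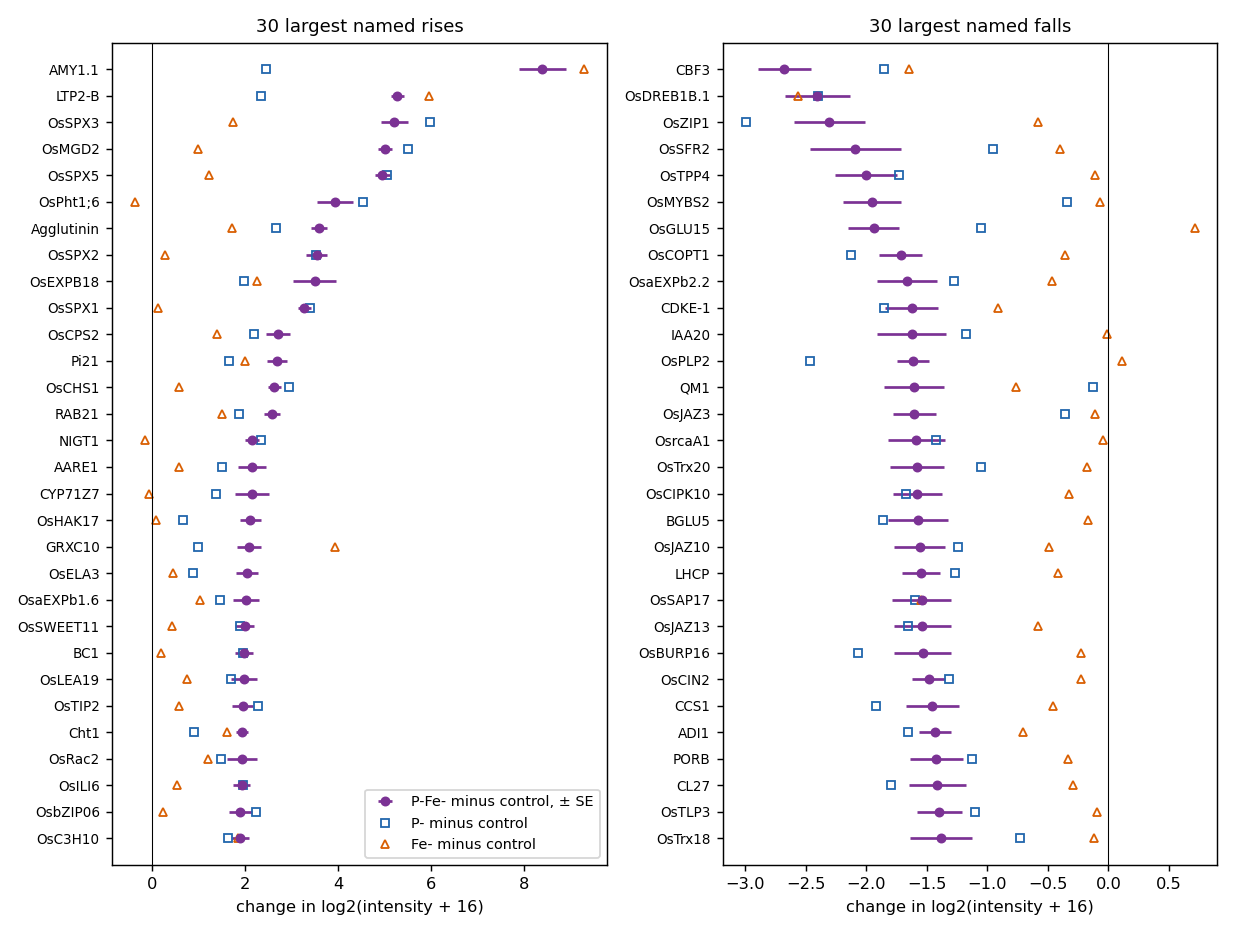
Change in log2(intensity + 16) of the 30 largest rises and 30 largest falls among named genes between P-Fe- and control roots (filled circles, bars ± SE), with the changes in P- (squares) and Fe- (triangles) against the same control arrays. AMY1.1, at 8.40, leads the rises and CBF3, at -2.68, the falls.

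None of the named genes passed in the same direction against the control and against both single deficiencies. The next comparisons asked where the combined state differed from one of them. Against P deficiency 18 probe sets passed, 13 higher (0.0227%) and 5 lower (0.00874%). Against Fe deficiency 1293 passed (2.26%), 776 higher (1.36%) and 517 lower (0.904%). The count against P deficiency was 12 without either control array and 0 without any one of the other 6 arrays, and the count against Fe deficiency was between 2 and 61 without any one array. The genes given by a locus number alone in the next 3 paragraphs, and the second OsMT-I-2c probe set, were chosen after their values were seen.

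AMY1.1 (LOC4330832) encodes an alpha-amylase, the enzyme family that breaks down starch. It had 12280 and 9387 in the combined deficiency, 196 and 127 in P deficiency, 19360 and 20990 in Fe deficiency and 37.9 and 2.92 in the control (8.40 against the control, SE 0.51, limma adjusted p = 0.00782). Every array of the treatments without Fe thus stood far above every array of those with Fe. The difference from P deficiency was 5.95 (adjusted p = 0.06). Its immediate neighbour in the genome, LOC4330830, had 1106 and 767 in the combined deficiency, 6.41 and 5.70 in P deficiency, 2073 and 1344 in Fe deficiency and 60.8 and 39.2 in the control. It passed against P deficiency (5.41, SE 0.30, adjusted p = 0.0173) and against the control (3.85, adjusted p = 0.0121), and of its 2 other probe sets 1 also rose against the control (3.50) and 1 did not (0.17). The MYB factor gene OsMYBS1, whose product activates alpha-amylase promoters, fell by 1.14 (adjusted p = 0.0387), and the list of 8 amylase and MYBS genes had 1 rise and 1 fall.

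LTP2-B (LOC4351317), a lipid transfer protein, was the one named gene by its main probe set that passed against P deficiency. It had 1311 and 1237 in the combined deficiency, 151 and 153 in P deficiency, 1992 and 2088 in Fe deficiency and 15.6 and 18.8 in the control. The change was 5.28 against the control (SE 0.13, limma adjusted p = 0.00065) and 2.94 against P deficiency (adjusted p = 0.0134). The 4 groups did not overlap, and the combined change was below the sum of the single changes (interaction -3.01, adjusted p = 0.0271). A second LTP2-B probe set rose by 3.31 and the dimmest gave -0.29. OsLTPL1 (1.04) was the other of 5 lipid transfer genes that rose. A second probe set of OsMT-I-2c had 10070 and 9822 in the combined deficiency, 2612 and 2373 in P deficiency, 15050 and 15860 in Fe deficiency and 2899 and 2709 in the control, and passed against P deficiency too (1.99, adjusted p = 0.034). GRXC10, a glutaredoxin, had 154 and 164 in the combined deficiency, 71.2 and 59.6 in P deficiency, 594 and 644 in Fe deficiency and 16.1 and 36.9 in the control. It rose against the control (2.09, adjusted p = 0.0228) and was lower than in Fe deficiency (-1.85, adjusted p = 0.038).

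LOC4350823 had 4501 and 4664 in the combined deficiency, 382 and 370 in P deficiency, 9710 and 9352 in Fe deficiency and 233 and 181 in the control. It passed against all 3 in limma, higher than in the control (4.37, adjusted p = 0.00226) and P deficiency (3.55) and lower than in Fe deficiency (-1.05, adjusted p = 0.0436). LOC4349197 stood highest with both nutrients missing, at 136 and 138 in the combined deficiency, 9.55 and 6.58 in P deficiency, 3.31 and 2.37 in Fe deficiency and 4.80 and 2.12 in the control. It passed against the control (2.98), P deficiency (2.67) and Fe deficiency (3.02), with adjusted p of 0.00491, 0.0173 and 0.00636. LOC4341223 went the other way, at 7.29 and 8.02 in the combined deficiency, 329 and 367 in P deficiency, 139 and 92.8 in Fe deficiency and 3.21 and 2.02 in the control. The 4 arrays of the single deficiencies thus stood far above those of the combined deficiency and the control. LOC4327106 was high with P missing alone, at 5017 and 3984 in P deficiency, and stood at 101 and 66.1 in the combined deficiency, 69.6 and 91.7 in Fe deficiency and 99.9 and 96.6 in the control.

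**Figure D5:**
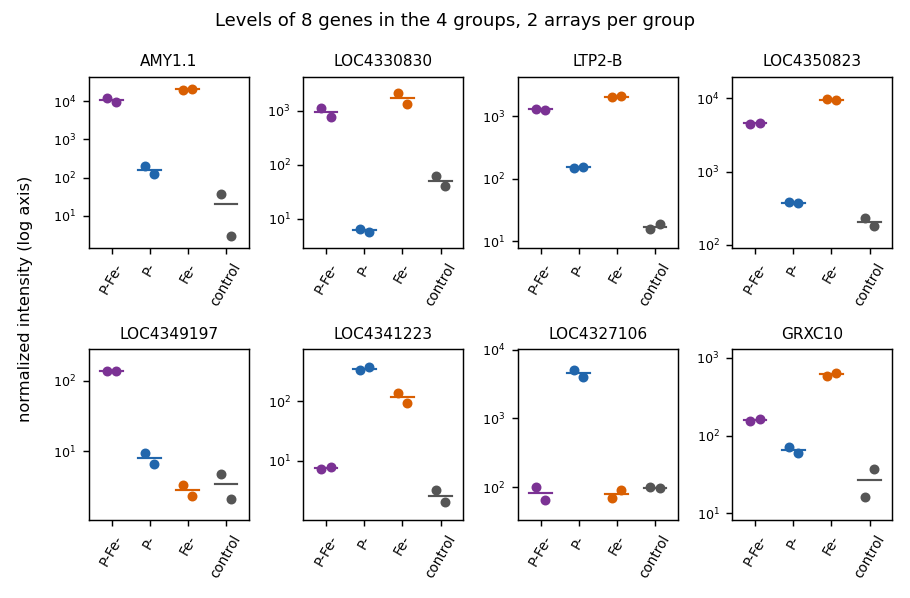
Normalized intensity (log axis) of 8 genes on each array, by group, with a line at each group mean of 2 arrays. AMY1.1, LOC4330830, LTP2-B and LOC4350823 are high in P-Fe- and Fe-, LOC4349197 is high in P-Fe- alone, and LOC4341223 and LOC4327106 are low in P-Fe- and high in P-.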

How the data were processed

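Root RNA was measured on 8 Affymetrix rice arrays in 4 groups of 2, and all data columns were used. Per the submitters' processing notes the deposited values were made in Affymetrix Expression Console 1.1, and they are linear array intensities. The sources used here do not say how probe signals were summarized. No detection calls came with the values, so a low intensity is not shown to lie above background. The 123 AFFX and 64 RPTR probe sets of 57381 were left out. Genes came from the platform's probe table and RefSeq synonyms, of a japonica assembly, whereas the plants were Indica. Of 57194 probe sets 22436 matched 1 gene, 95 several and 34663 none, giving 17905 genes, 2478 with a name.

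All 8 arrays were quantile-normalized, converted to log2(intensity + 16) and fitted with 1 mean per group with limma 3.58.1 (lmFit, then eBayes, in R 4.3.3, on 4 residual degrees of freedom plus 1.74 from the prior), with Benjamini-Hochberg adjustment over 57194 probe sets and a threshold of 0.05. On simulated data 200 probe sets with a mean intensity of at least 100 were changed, in the combined deficiency alone. Of these, 13 of 68 were called at a log2 change of 1, 49 of 66 at 2 and 62 of 66 at 4, with 9 false calls. Dimmer probe sets were not changed and 200 is far below the 2200 calls in the data, so these shares do not carry over to dim genes. The number of arrays limits the precision.

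The members and gene lists were chosen with earlier results of these data known. Lists were drawn by gene name, with the brightest probe set per gene. Named genes were the 30 largest rises and falls among probe sets that passed, changed by at least 1, matched 1 named gene and did not overlap between groups, all members of the phosphate and iron lists, and up to 4 per other list, plus members that passed against the direction of their list. Where a list had more than 4 calls, the further ones were named after their values were seen. The planned promoter motif search was not run. Alternatives were other scalings, added constants of 1 and 64, a minimum mean intensity of 100, a fit on 4 arrays, an intensity trend with a robust prior, the replicate number as a block, and leaving out each array.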

Additional observations from a re-analysis of the deposited data

Results flagged for a closer look

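In 4 genes the change with both nutrients missing differed from the sum of the changes in P deficiency and Fe deficiency, tested by the interaction in limma and adjusted over all probe sets. LTP2-B had an interaction of -3.01 on the log2 scale (adjusted p = 0.0271). LOC4327106 had an interaction of -5.27 (adjusted p = 0.0271), and its 2 other probe sets gave -5.51 and -4.08 without passing (adjusted p = 0.183 and 0.0738). LOC4341223 had an interaction of -6.74 (adjusted p = 0.0167). LOC4349197 had an interaction of 2.72 (adjusted p = 0.0463), the one above 0 among these 4. The 3 loci without a name were chosen after their values were seen, and no cause was tested.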

How the results depend on the processing

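Against the control, the 2200 calls became 843 with an added constant of 1, 4506 with 64, 6998 of 23858 probe sets with a mean intensity of at least 100, 6775 with an intensity trend and robust prior, and 0 on the 4 arrays alone (9539 at an unadjusted p below 0.05 in limma). Against P deficiency, the 18 calls became 10, 118, 527, 840 and 0 (5311 unadjusted) in the same order, and against Fe deficiency the 1293 became 205, 3614, 6259, 5894 and 0 (10536 unadjusted). Median centring gave 783 against Fe deficiency, 27.6% of them higher, and the values as deposited gave 2455 calls against the control, 64.4% of them higher. With the replicate number as a block the counts were 107, 0 (5399 unadjusted) and 19. Same-numbered arrays did not deviate together (correlations -0.0173 to 0.0172), so the numbers were not taken as pairs. Leaving out 1 array gave 4 to 603 calls against the control, 0 to 12 against P deficiency and 2 to 61 against Fe deficiency, in fits that give the lone array the spread of the other groups. Of 128 calls among named genes and list members, 123 held with the values as deposited, 101 with median centring, 65 with an added 1, 128 with 64, 126 with the trend, 117 of 117 above the minimum intensity, 17 with the block and 0 on 4 arrays. Without 1 array between 2 and 60 held, LTP2-B and OsMGD2 each time and 67 in no case, and 0 named or listed gene changed direction past the threshold. The causes were not tested.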

Other observations

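Of 9988 pairs of genes that lie next to each other and were both measured, 27 had both members higher in the combined deficiency than in the control, 11 had both lower, and 24 had opposite calls. Of the measured neighbours of genes that rose, 7.05% also rose, beside 3.77% of all genes, and of the neighbours of genes that fell, 3.62% also fell, beside 2.93%. Besides the pairs in the results, Os-UGD4 (1.28) and Os-UGD5 (0.89), named for UDP-glucose dehydrogenase, an enzyme of wall sugar synthesis, both rose, as did LAC4 and its neighbour LOC4327501 (1.86).

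LOC4333634, chosen after its values were seen, had 1523 and 1520 in the combined deficiency, 153 and 152 in P deficiency, 2275 and 2466 in Fe deficiency and 167 and 156 in the control. LOC4350216, chosen in the same way, had 600 and 557 in the combined deficiency, 33.1 and 43.2 in P deficiency, 1418 and 1757 in Fe deficiency and 54.2 and 77.3 in the control. Both passed against P deficiency in limma, with changes of 3.19 (adjusted p = 0.0134) and 3.46 (adjusted p = 0.0247).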
